A study of Mus musculus with 6 samples.

Results

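The subunits of NF-κB and the IκB proteins that hold them were measured in BV2 cells after LPS, with and without overexpression of PGC-1α. The members are 10 genes, found through the accession of each array probe in a table of mouse RefSeq genes. They are Rel, Rela, Relb, Nfkb1 and Nfkb2 for the subunits and Nfkbia, Nfkbib, Nfkbie, Nfkbiz and Bcl3 for the IκB family. These 10 of the 23462 genes with a probe on the arrays had 15 probes, and every probe was kept. All 15 were well above background on all 6 arrays and none was saturated.

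NF-κB is a family of transcription factors that act as pairs of subunits and bind κB sites in the promoters of cytokine, chemokine and survival genes. In resting cells, the classical IκB proteins hold the pairs in the cytoplasm. When LPS is sensed by Toll-like receptor signalling in microglia, the IKK kinases mark IκB for degradation and the subunits enter the nucleus. Several subunit and IκB genes are themselves turned on by NF-κB, so that the system restrains itself. PGC-1α is a transcriptional coactivator best known for driving mitochondrial genes.

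BV2 is an immortalized mouse microglial cell line. The group without PGC-1α overexpression had 3 arrays and the group with it had 3, and LPS (lipopolysaccharide) is listed as the treatment of all 6. The cell culture methods of the study describe a lentivirus that carried either the PGC-1α coding sequence, in a vector whose name begins with Ubi, or a negative control, puromycin selection, and 500 ng/ml LPS for 6 h, without naming the arrays. Both groups had LPS, so no value here is a response to LPS. The labels do not say whether the 3 samples of a group came from separate cultures, so p-values measure only the spread between these samples, which may be technical. The RNA was bulk, and fewer cells of a kind cannot be told apart from less RNA per cell.

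The 75th percentile of the intensity was 1617 to 1893 on the arrays without PGC-1α and 856 to 1268 on those with it, and the array with PGC-1α, replicate 2, was the dimmest. Replicates 1 and 2 of both groups lay on slide 1 and replicate 3 of both on slide 2. Levels are given as log2 signal relative to the 75th percentile of the same array, and fold changes as log2 values, with minus without PGC-1α. On this scale the median fold change of all 17172 genes tested was 0.23, against 0.02 after quantile normalization, and 0.39 against -0.03 in the 3435 brightest genes. Rela, Relb, Nfkb2, Nfkbia and Nfkbib are among those 3435, so both scalings are given for them. Neither of the 2 probes of Ppargc1a, the gene of PGC-1α, was bright enough to be tested. Its intensities were 9.06 to 22.3, and each probe was well above background on at most 2 arrays of a group, so the targeted gene gave no check of the labels. Where these probes lie against the introduced coding sequence was not examined. Of 12 microglia and macrophage markers, 10 were tested, and Cx3cr1 and P2ry12 were too dim. Of these 10, 4 were called (40%, where 55% of all genes were). Cd68, Csf1r and Itgam were called higher, at 0.46, 0.67 and 0.75, though not after quantile normalization, and Tmem119 fell by 2.68 (limma, adjusted p = 5.4e-05). Adgre1 and Fcgr3 were called lower only after quantile normalization, at -0.47 and -0.35.

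Nfkbie, the gene of IκBε, was the member that stood far apart, with about 5 times less signal at its only probe in the cells with PGC-1α. Nfkb2, the gene of p100 and p52, was the only member called higher, and this call did not hold after quantile normalization or at its other probe. At the brightest probe of each gene, which stands for it in counts of genes, the remaining 8 members, among them Rela, Relb, Nfkb1 and Nfkbia, did not pass the threshold of an adjusted p of 0.05 in limma. A second, dimmer probe of Rela did. One member of 10 called higher stands against 35.9% of all genes tested, and 1 of 10 called lower against 19.1%, so that 2 members of 10 were called in either direction, where 55% of all genes were. After quantile normalization, 0 members were called higher and 1 was called lower, where 22.4% and 21.7% of all genes were called. The median fold change of the members was 0.19, and after quantile normalization -0.14.

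The promoters of 3 members are shown for the results that follow, since they belong to the member that fell (Nfkbie), the member called higher (Nfkb2) and the best-known NF-κB-induced inhibitor (Nfkbia). Each is the 250 bases before the start of a RefSeq transcript in the mouse build GRCm38.p6, written 5′ to 3′ along the gene. Capitals mark matches of the κB consensus, searched on both strands, and overlapping matches run together. The windows are chr17:45555450-45555699 on the plus strand for Nfkbie, chr19:46304487-46304736 on the plus strand for the first of 3 Nfkb2 starts, and chr12:55492648-55492897 on the minus strand for Nfkbia.
Nfkbie: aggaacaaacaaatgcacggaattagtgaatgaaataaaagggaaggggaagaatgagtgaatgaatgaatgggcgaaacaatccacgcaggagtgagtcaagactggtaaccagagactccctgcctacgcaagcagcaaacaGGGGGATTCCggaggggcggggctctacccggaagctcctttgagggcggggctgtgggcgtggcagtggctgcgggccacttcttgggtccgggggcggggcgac
Nfkb2: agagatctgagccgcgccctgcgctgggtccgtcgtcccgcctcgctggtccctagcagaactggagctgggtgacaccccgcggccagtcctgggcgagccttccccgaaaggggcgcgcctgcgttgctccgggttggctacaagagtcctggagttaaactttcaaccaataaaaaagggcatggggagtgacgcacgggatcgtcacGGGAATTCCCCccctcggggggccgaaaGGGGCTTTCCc
Nfkbia: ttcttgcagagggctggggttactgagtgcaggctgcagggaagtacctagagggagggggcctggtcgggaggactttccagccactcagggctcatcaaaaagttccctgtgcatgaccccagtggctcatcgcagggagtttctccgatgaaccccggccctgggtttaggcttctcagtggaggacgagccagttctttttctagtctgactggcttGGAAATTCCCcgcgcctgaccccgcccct

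The Nfkbie window holds 1 match, GGGGGATTCC, from 106 to 97 bases before the start, and the Nfkbia window holds 1 on its minus strand, GGGAATTTCC, from 29 to 20 bases before it. In the Nfkb2 window 4 matches lie between 39 and 2 bases before the start. Of these, 3 overlap in the same stretch, where GGGAATTCCC is counted on both strands, and the other stands apart. Windows were present for 7 of the 10 members, and 4 of these 7 genes (Rel, Nfkb2, Nfkbia and Nfkbie) had a match, where 4.46% of 27025 genes had one. The windows of Rela, Nfkbib and Bcl3 had no match. So a κB match was present in the window of the member that fell, in that of the member called higher, and in those of 2 members that did not pass the threshold. The response element of ERR receptors, partners of PGC-1α, was searched as TNAAGGTCA on both strands and was found in 0 of the 9 member windows and in 1.14% of 32851 windows. A match describes the letters only, and no binding was measured.

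**Figure D1:**
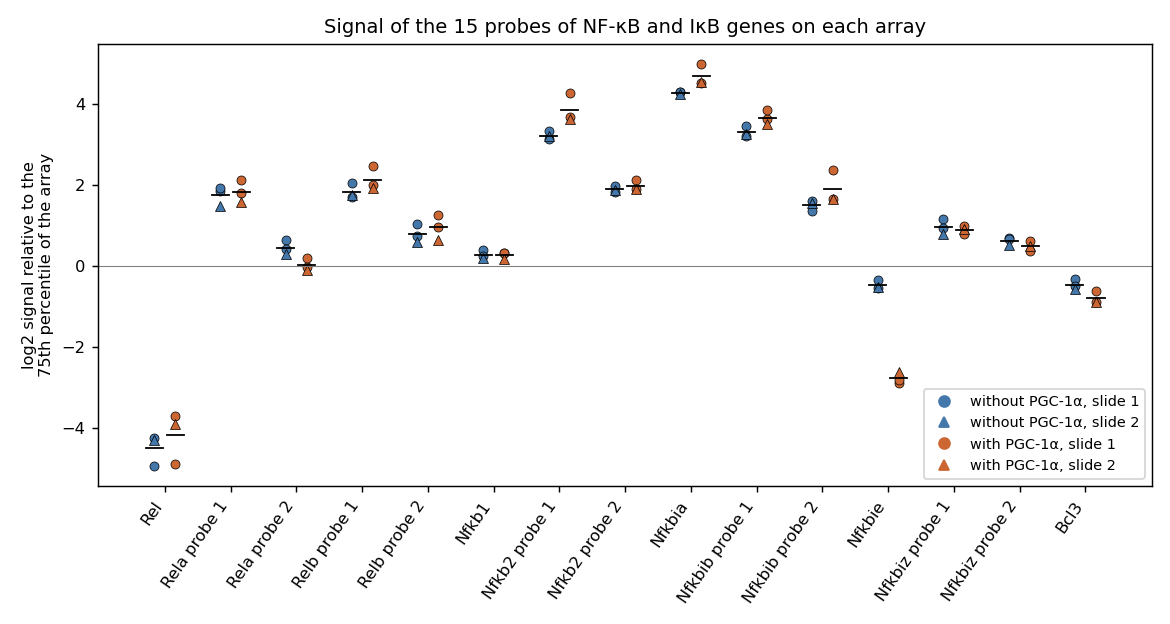
Log2 signal relative to the 75th percentile of the array (y axis) for each of the 15 probes (x axis). Points are single arrays (blue without, orange with PGC-1α, circles slide 1, triangles slide 2) and short bars are means of 3 arrays. Only the Nfkbie probe shows a gap between the groups much wider than the spread within them. Levels of different probes cannot be ranked against each other.

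Among the inhibitors that keep NF-κB in the cytoplasm, Nfkbie encodes IκBε, which binds mainly pairs with RelA or c-Rel and is itself induced by NF-κB. Without PGC-1α its log2 signal was -0.35, -0.54 and -0.51 in replicates 1 to 3. With PGC-1α it was -2.89, -2.81 and -2.61. Every array with PGC-1α was thus far below every array without it, and both groups were tight. Nfkbie fell by 2.30 on the log2 scale (SE 0.13, n = 3 against 3, limma adjusted p = 3.3e-05, 95% interval -2.61 to -2.0), which is 4.94-fold lower. In intensities before scaling, 1122 to 1328 without PGC-1α stood against 122 to 208 with it. The fold change was -2.41 on slide 1 and -2.10 on slide 2. Only 146 of the 17172 genes tested (0.85%) had a lower fold change. After quantile normalization it was -2.33, and over the 20 alternatives with a test it ran from -2.41 to -1.93, past the threshold in all of them.

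Nfkbia encodes IκBα, the main inhibitor of RelA with p50 and an early target of NF-κB. Its log2 signal was 4.3, 4.28 and 4.23 without PGC-1α and 4.52, 4.97 and 4.53 with it. On this scale the groups did not overlap, but before scaling the intensities ran the other way, from 31624 to 35435 without and 26537 to 29232 with PGC-1α. Its fold change was 0.41 (SE 0.15, limma adjusted p = 0.055) and turned to -0.21 (adjusted p = 0.20) after quantile normalization. Neither value passed the threshold, so no direction is given for Nfkbia. With the slide as a block, the first value had an adjusted p of 0.040.

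Nfkbib, the gene of IκBβ, a slower inhibitor of RelA and c-Rel pairs, had 2 probes. Its brighter probe read 3.45, 3.21 and 3.25 without and 3.61, 3.84 and 3.50 with PGC-1α. These groups did not overlap, with the array of replicate 2 with PGC-1α highest. The fold change was 0.35 (SE 0.14, limma adjusted p = 0.070), and -0.14 (adjusted p = 0.37) after quantile normalization. The dimmer probe, designed on another transcript, gave 0.38 (SE 0.21, limma adjusted p = 0.16), and 0.18 after quantile normalization. The direction of the brighter probe thus depends on the scaling, and neither probe passed the threshold in this fit. The brighter one did with the slide as a block (limma adjusted p = 0.050, just under the threshold), with a variance trend (0.031) and with array weights (0.0039).

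The nuclear members of the family act on NF-κB bound to DNA. Bcl3 binds pairs of p50 or p52 and can activate or repress their targets. Its log2 signal was -0.32, -0.50 and -0.58 without and -0.89, -0.62 and -0.89 with PGC-1α. All 3 arrays with PGC-1α were lower, by a narrow margin between replicate 2 with and replicate 3 without PGC-1α. The fold change was -0.34 (SE 0.14, limma adjusted p = 0.071), and -0.31 (adjusted p = 0.10) after quantile normalization. It was negative in each of the 20 alternatives with a test and passed the threshold in 5 of them.

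Nfkbiz encodes IκBζ, which works with p50 at genes of the late response such as Il6. At its brighter probe it read 1.16, 0.93 and 0.78 without and 0.97, 0.78 and 0.92 with PGC-1α, and the groups overlapped. Its fold changes at both probes were -0.07 (SE 0.14, limma adjusted p = 0.71) and -0.13 (SE 0.13, adjusted p = 0.41). The 95% interval of the first ran from -0.39 to 0.26, so a change of the size seen for Nfkbie lies outside it.

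Of the 3 subunits with a transactivation domain, Rela, the main partner of p50 in the classical pathway, had 2 probes that gave different results. At the brighter probe Rela read 1.86, 1.91 and 1.47 without and 1.79, 2.12 and 1.57 with PGC-1α. These values overlapped, and the fold change was 0.08 (SE 0.18, limma adjusted p = 0.74), or -0.13 after quantile normalization. At the dimmer probe, of the same accession, Rela read 0.65, 0.40 and 0.29 without and -0.02, 0.20 and -0.10 with PGC-1α. The groups did not overlap there, and the signal of this probe fell by 0.42 (SE 0.15, limma adjusted p = 0.044) and by 0.43 (adjusted p = 0.042) after quantile normalization. In all, 3 of the 15 member probes were called, 1 each of Nfkbie, Nfkb2 and Rela, where 52.2% of the 24824 probes tested were.

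Relb, the activating subunit of the non-canonical pathway, read 2.03, 1.70 and 1.74 without and 2.00, 2.47 and 1.91 with PGC-1α at its brighter probe. The groups overlapped, and the highest value came from the dimmest array, replicate 2 with PGC-1α. Its fold change was 0.30 (SE 0.18, limma adjusted p = 0.19), or 0.07 after quantile normalization, and its other probe gave 0.16 (adjusted p = 0.49). Rel, the gene of c-Rel, which drives Il12b in myeloid cells, was measured by a dim probe and varied most between arrays. It read -4.92, -4.25 and -4.28 without and -3.69, -4.89 and -3.90 with PGC-1α, with intensities of 28.8 to 97.1. The arrays overlapped widely, and the fold change was 0.33 with an SE of 0.32 (limma adjusted p = 0.42). Leaving out 1 array moved it from 0.090 (without replicate 1 with PGC-1α) to 0.69 (without replicate 2 with PGC-1α, adjusted p = 0.044), and it was 0.11 without replicate 1 of the other group. Rel was also past the threshold after normexp background correction (0.46, limma adjusted p = 0.012) and with array weights (0.67, adjusted p = 0.0068).

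The precursor subunits p105 and p100 carry IκB-like repeats and are cut to p50 and p52. Nfkb1, the gene of p105, read 0.39, 0.25 and 0.20 without and 0.32, 0.33 and 0.16 with PGC-1α. Both groups covered nearly the same range. Its fold change was -0.01 (SE 0.12, limma adjusted p = 0.96), and -0.12 with median scaling. The 95% interval of the first ran from -0.29 to 0.28, and it measures only the spread between these samples.

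Nfkb2 differed between its probes and between scalings. At the brighter probe it read 3.33, 3.12 and 3.19 without and 3.66, 4.26 and 3.63 with PGC-1α. The groups did not overlap, with replicate 2 with PGC-1α again highest. Nfkb2 rose by 0.64 at this probe (SE 0.19, limma adjusted p = 0.022), which is 0.41 above the median of all genes, by 0.74 on slide 1 and by 0.43 on slide 2. The median of the 3435 brightest genes, Nfkb2 among them, was itself 0.39 on this scale. The intensities before scaling overlapped, at 14101 to 17318 without and 14618 to 16417 with PGC-1α, and the fold change after quantile normalization was 0.13 (adjusted p = 0.51). Leaving out replicate 2 without PGC-1α gave 0.59 (adjusted p = 0.071), and leaving out its replicate 3 gave 0.63 (adjusted p = 0.056). At the dimmer probe of the same accession, Nfkb2 read 1.97, 1.81 and 1.86 without and 1.89, 2.11 and 1.90 with PGC-1α. These overlapped, with a fold change of 0.08 (SE 0.13, limma adjusted p = 0.60), or -0.14 after quantile normalization.

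**Figure D2:**
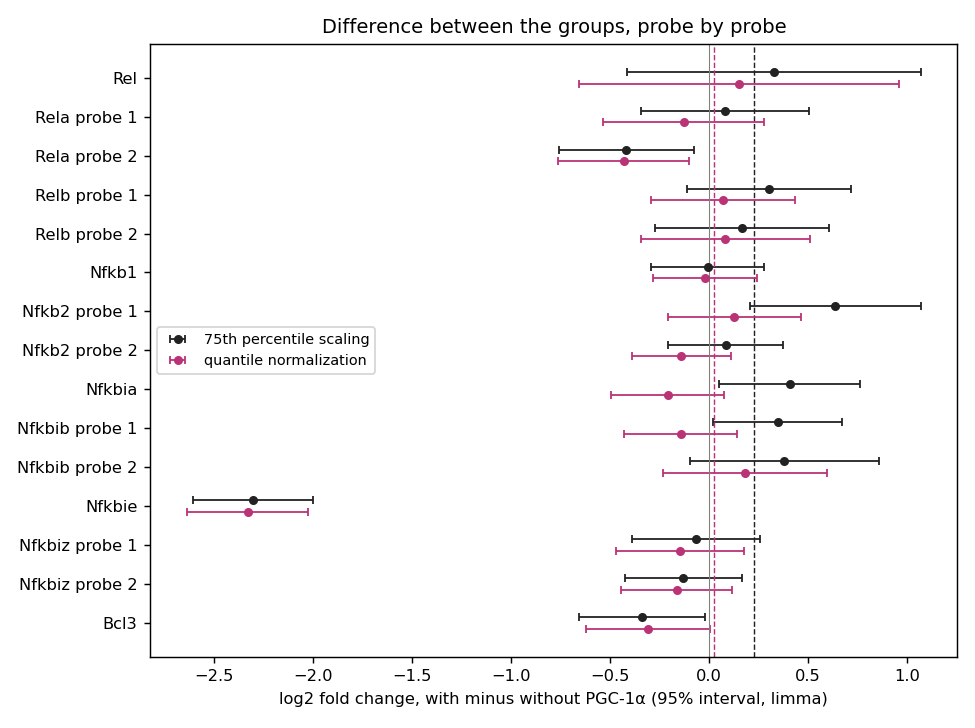
Log2 fold change, with minus without PGC-1α (x axis), of each of the 15 probes (y axis) with its 95% interval from limma, for the 75th percentile scaling (black) and quantile normalization (magenta). Dashed lines are the medians of all genes tested, 0.23 and 0.02. Nfkbie keeps its place near -2.3 under both, while Nfkbia, the brighter probes of Nfkbib and Rela and the dimmer probe of Nfkb2 cross 0.

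Counted by non-overlap alone, the brighter probes of Nfkb2, Nfkbia, Nfkbib, Nfkbie and Bcl3 separated the groups, 5 of 10 members, where 65.6% of the 16235 genes measured on all 6 arrays did. After quantile normalization 2 of 10 did, Nfkbie and Bcl3, against 57.9% of those genes. For 5 members a second probe allowed a comparison within each array that no scaling factor between arrays can move. The dimmer Nfkb2 probe read -1.35, -1.30 and -1.33 relative to the brighter one without PGC-1α and -1.77, -2.15 and -1.73 with PGC-1α. This gap was wider on every array with PGC-1α, with a mean shift of -0.55 (exact permutation test, two-sided, p = 0.1, the smallest that 3 against 3 arrays allow). Between the Rela probes the shift was -0.50, also without overlap (exact permutation p = 0.1). After quantile normalization the shifts were -0.27 for Nfkb2, still without overlap, and -0.30 for Rela, where the groups overlapped (exact permutation p = 0.2). The shifts for Relb, Nfkbib and Nfkbiz were -0.14, 0.03 and -0.06, and their groups overlapped. These are 5 comparisons, and none can pass a threshold of 0.05 with so few arrays.

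The same kind of comparison set each other member against Rela, at the brighter probe, on the same array. Nfkbie relative to Rela was -2.21, -2.45 and -1.98 without PGC-1α and -4.67, -4.93 and -4.18 with it. The 2 groups were far apart, and the ratio differed by -2.38 (SE 0.26, exact permutation p = 0.1). Bcl3 relative to Rela was lower by 0.41 on average (-0.41, SE 0.13, exact permutation p = 0.1), also without overlap, and Nfkb2 was higher by 0.56 (SE 0.17, exact permutation p = 0.1). In the authors' normalized values these differences were -1.97 for Nfkbie, -0.16 for Bcl3 and 0.25 for Nfkb2. For Nfkbia and Nfkbib the differences were 0.33 and 0.27, with overlapping groups, and both were slightly below 0 in the authors' values. Relb, Rel, Nfkb1 and Nfkbiz differed from Rela by 0.22, 0.25, -0.09 and -0.14 between the groups, all with overlap. Over these 9 ratios the smallest possible p was 0.1. Against the dimmer Rela probe, a comparison added after seeing the data, Nfkbie still differed by -1.89 without overlap, whereas Bcl3 was at 0.081 with overlapping groups, so the direction for Bcl3 depends on the Rela probe. Nfkb2 was at 1.06 there.

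**Figure D3:**
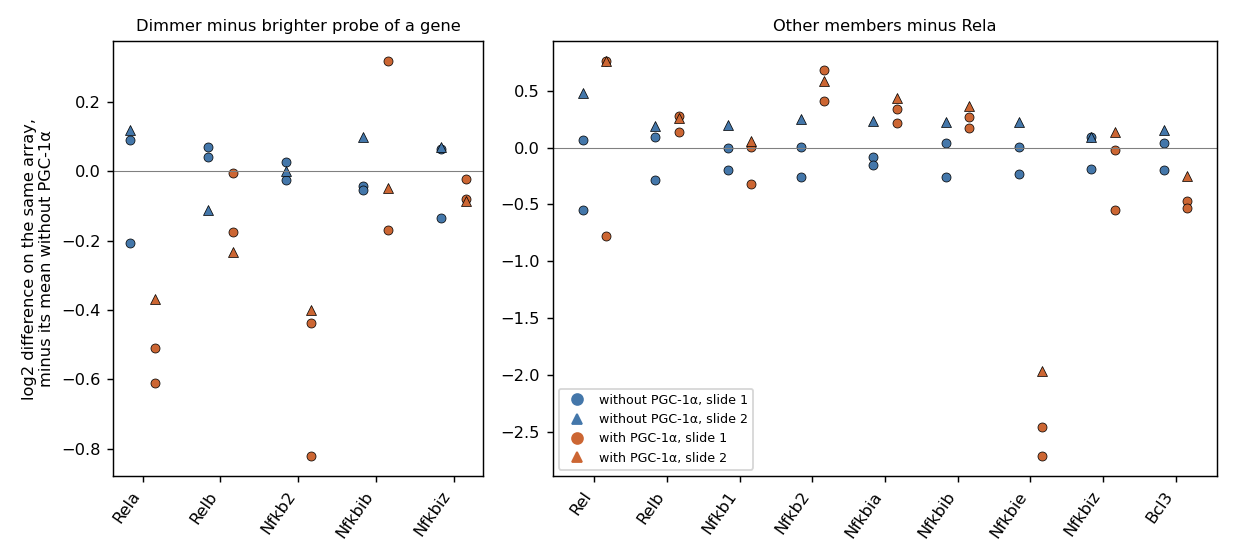
Log2 differences between 2 probes of the same array, each minus its mean over the arrays without PGC-1α (y axis), for the dimmer against the brighter probe of 5 genes (left) and for 9 members against Rela (right). Points are single arrays (blue without, orange with PGC-1α, circles slide 1, triangles slide 2). The groups separate for the probe pairs of Rela and Nfkb2, and for Nfkbie, Nfkb2 and Bcl3 against Rela.

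Likeness of pattern was described with Pearson's r over the 6 arrays, which share their 75th percentile scaling and fall into the 2 groups. Nfkb2 was most like Nfkbia (0.99) and Nfkbib (0.97), and Relb was most like Nfkbib (0.95). These bright probes were all highest on the dimmest array, replicate 2 with PGC-1α. Nfkbie was most like Bcl3 (0.83). No test was made of these values.

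The kinases and adaptors that lead from the receptor to IκB included genes called in both directions. Of 28 genes of the IKK complex and the steps above it, all tested, 3 were called higher and 6 lower (9 of 28, where 55% of all genes were called), with a median fold change of -0.09, against 0.23 for all genes, and after quantile normalization 1 was called higher and 6 lower. Those with the lowest values were Traf3, an adaptor that restrains the non-canonical pathway, at -0.96 (SE 0.18, limma adjusted p = 0.0037), Irak4, the kinase first recruited by MyD88, at -0.85 (adjusted p = 0.0014) from a dim probe that gave -0.40 after normexp background correction, and Traf2 at -0.77 (adjusted p = 0.0041). Map3k14, the gene of NIK, the kinase that starts p100 processing, rose by 0.79 (SE 0.16, limma adjusted p = 0.0056). It rose after quantile normalization as well, by 0.61, whereas Ube2v1 (0.57) and Irak1 (0.48), called higher at first, were at 0.05 and 0.21 there and did not pass. The IKK subunit genes themselves, chosen here for their role after the values were seen, did not pass the threshold, with fold changes of -0.10 for Chuk, -0.40 for Ikbkb and 0.14 for Ikbkg.

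Other negative regulators of NF-κB were called in either direction at a share near that of all genes, but mostly lower. Of 15 listed, 14 were tested (Zc3h12a was too dim), 2 were called higher and 5 lower (50% called, against 55% of all genes), and their median fold change was -0.22. Of all genes, 35.9% were called higher and 19.1% lower. After quantile normalization 1 regulator was called higher and 6 lower, where 22.4% and 21.7% of all genes were. Usp18, which limits interferon and TAK1 signalling, fell by 1.54 (SE 0.17, limma adjusted p = 4.7e-04). Its probe was dim with PGC-1α (intensities of 86.6 to 194), and the fold change was -1.05 after normexp background correction. Tnfaip3, the gene of A20 and itself an NF-κB target, fell by 1.07 (SE 0.19, adjusted p = 0.0033), and its partner Tnip1 fell by 0.80 (SE 0.11, adjusted p = 0.0013). The deubiquitinase gene Cyld rose by 0.37 (SE 0.14, limma adjusted p = 0.049), and Commd1, measured on 2 arrays without PGC-1α, rose by 0.49 (adjusted p = 0.025) but was at 0.16 and did not pass after quantile normalization. Nfkbid, the remaining nuclear IκB gene, was at -0.27 (adjusted p = 0.11), and at -0.35 (adjusted p = 0.047) after quantile normalization, without overlap under either scaling.

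Genes that NF-κB is known to drive were called in both directions, and only the share called in either direction was near that of all genes. Of 32 listed, 28 were tested (Ccl20, Cxcl1, Cxcl2 and Vcam1 were too dim), 7 were called higher and 10 lower (60.7% called, against 55% of all genes), and the median fold change was -0.03. More targets were thus called lower than higher, whereas 35.9% of all genes were called higher and 19.1% lower. Ccl2, a monocyte chemokine, fell by 2.61 (SE 0.12, limma adjusted p = 2.4e-05), a value near that of Nfkbie. The cytokine gene Tnf fell by 1.75 (SE 0.18, adjusted p = 2.8e-04) and the growth factor gene Csf1 fell by 1.74 (SE 0.14, adjusted p = 1.1e-04). Ptgs2, the gene of cyclooxygenase-2, rose by 1.69 on 3 arrays without and 2 with PGC-1α (SE 0.30, adjusted p = 0.0040). Nos2, the inducible nitric oxide synthase gene, rose by 1.11 (SE 0.15, adjusted p = 0.0010), and the chemokine gene Ccl5 rose by 1.09 (SE 0.13, adjusted p = 6.1e-04). After quantile normalization 5 of the targets were called higher and 10 lower, where 22.4% and 21.7% of all genes were.

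**Figure D4:**
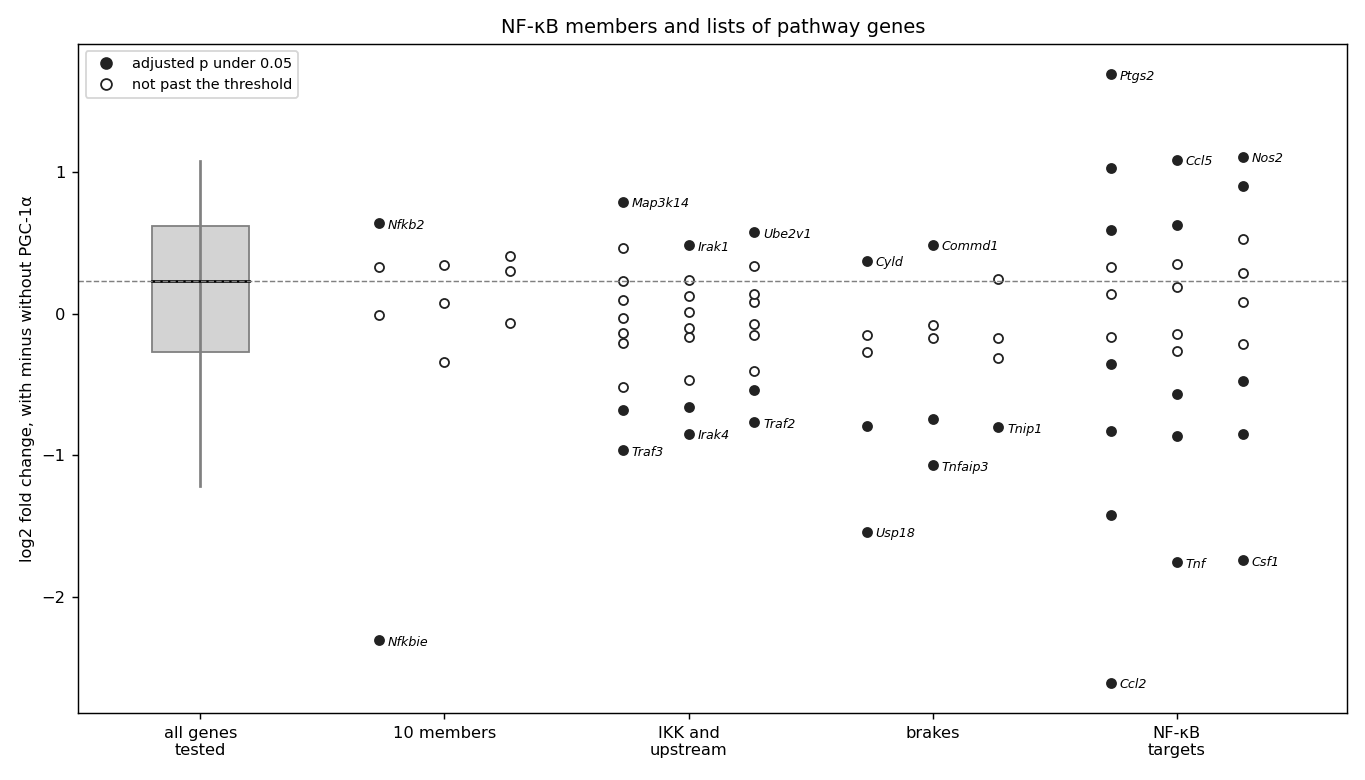
Log2 fold change, with minus without PGC-1α (y axis), of the 10 members and of the tested genes of 3 pathway lists (points, filled where the adjusted p was under 0.05), with all 17172 genes as a box (quartiles) and line (5th to 95th percentile). The dashed line is the median of all genes, 0.23, and horizontal offsets only separate points. Nfkbie and Ccl2 lie lowest, while members such as Rela and Nfkb1 lie inside the box.

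Markers of other cells were measured in the same way. The 5 fibroblast markers were all called, 4 higher (3 after quantile normalization) and Pdgfra lower, with summed levels of 3.94 to 4.05 without and 4.73 to 5.0 with PGC-1α. Col1a1, the brightest of these probes, rose by 0.77, but by 0.22 (limma adjusted p = 0.13) after quantile normalization. Of the microglia and macrophage markers 3 were called higher and 1 lower, with summed levels of 6.26 to 6.31 and 6.67 to 6.88, but 0 higher and 3 lower after quantile normalization. Of 4 tested neuron markers 2 were called higher (1 higher and 1 lower after quantile normalization), of 4 tested astrocyte markers 2, and of 5 oligodendrocyte markers 1, all at or below the 55% of all genes. Among the markers called, Rbfox3 (intensities of 11.0 to 22.7), Col3a1 (16.9 to 33.6), Aldh1l1 (39.6 to 52.4) and Mag (52.2 to 77.9) were dim. Pdgfra was dim with PGC-1α (28.2 to 47.3), and its fold change of -1.63 was -0.66 after normexp background correction. The part of other cells in the values of Nfkbie, Nfkb2 and the lists was not tested.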

How the data were processed

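RNA of 6 samples was measured on 6 1-colour Agilent arrays. Groups and replicate numbers came from the sample titles, which do not name the slide. Sample labels name Cy3 and the methods Cy5 as the dye, and only green-channel values were in the files. The authors deposited the intensity of each spot, background-subtracted on each array by Agilent Feature Extraction, and a table of log2 values normalized in GeneSpring by steps not given in the sources used here, which served as an alternative.

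Log2 intensity minus the 75th percentile of the array was used, without outlier spots, and repeated spots were averaged. Of 56605 probes, 33767 matched 1 gene by accession in a RefSeq table of GRCm38. The array design names an older build, so probes have no coordinates here. Testing required 2 or more measured arrays per group and a signal well above background throughout 1 group (3 arrays). The 24824 probes of 17172 genes (937 with a missing value) entered a two-sided limma fit (version 3.58.1, R 4.3.3), and p-values were adjusted over all of these probes by the method of Benjamini and Hochberg. The brightest tested probe stood for a gene. Single ratios were compared by exact permutation. All members were named, with, from each pathway list, the 3 genes of largest positive and negative fold change among genes past the threshold, without overlap and above background in both groups. Members and lists were chosen with earlier results of these data known. Only the limma fit was tested on simulated data, not the scaling, the filter or the choice of probe. Alternatives were other scalings, normexp with an offset of 50, filters, probe rules, blocks, weights, a variance trend and leaving out each array. Precision is limited by the number of arrays. Tables and plots used Python 3.11.15, numpy 2.4.6, pandas 2.3.3 and matplotlib 3.10.9. No amino acid sequences were used here.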

Additional observations from a re-analysis of the deposited data

How the results depend on the processing

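Nfkbie was called lower under all 20 alternatives with a test. The count of members called higher was 0 after quantile normalization, with the authors' log2 values, after normexp and quantile normalization, and with each gene's probes averaged (Nfkb2 then at 0.13, 0.12, 0.10 and 0.36). It was 2 after normexp and 75th percentile scaling, 3 with the slide as a block, 3 with a variance trend and 4 with array weights, with Nfkbia and Nfkbib joining Nfkb2 in these last 3. The count called lower was 2 after median scaling, after normexp with either scaling and with array weights, Bcl3 being the second, and array weights called 14 genes of the IKK list, against 9. Leaving out 1 array gave 0 to 2 members higher and 1 to 2 lower. The 0 followed from leaving out replicate 2 or 3 without PGC-1α, the 2 higher from leaving out replicate 2 or 3 with PGC-1α, and the 2 lower from leaving out replicate 2 with PGC-1α.

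Small values changed sign. Quantile normalization gave -0.21 for Nfkbia, -0.14 for Nfkbib and -0.13 for Rela, the authors' values -0.20, -0.14 and -0.12, and normexp with quantile normalization -0.23, -0.18 and -0.062. For Rela, median scaling gave -0.033, the mean of its probes -0.17 and array weights -0.051, which also gave 0.051 for Nfkb1 and 0.015 for Nfkbiz. Within slide 1 Nfkb1 was at 0.0078, and within slide 2 Nfkbiz was at 0.14 and its ratio to Rela at 0.041. The ratios to Rela of Nfkb1, Nfkbia and Nfkbib were 0.10, -0.080 and -0.020 in the authors' values and 0.044, -0.16 and -0.12 after normexp with quantile normalization. With the dimmer Rela probe, chosen after seeing the data, the ratios of Nfkb1, Nfkbiz and Bcl3 were 0.41, 0.35 and 0.081. Leaving out 1 array gave -0.068 to 0.20 for Rela, -0.046 to 0.046 for Nfkb1 and -0.16 to 0.033 for Nfkbiz, and, for ratios to Rela, -0.18 to 0.032 for Nfkb1, -0.28 to 0.057 for Nfkbiz and -0.024 to 0.76 for Rel. The cause of these shifts was not tested, beyond the fewer samples of the last. Of the member fold changes under alternatives, 166 kept direction and, where a test was made, side of the threshold. A further 16 gained the threshold, 6 lost it, 21 changed sign and 1 with no test moved by more than the spread. The values within slide 2 had no test.

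With the replicate number as a block, 2 members were called higher (Nfkbia joined, adjusted p = 0.045) and 1 lower. The samples share only a number: same-numbered deviations correlated at -0.20, 0.02 and 0.60, and replicate 1 without PGC-1α went best with replicate 2 with PGC-1α (0.53). Background limits Rel, whose probe was dim on every array.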
